A study of Drosophila melanogaster with 837 samples.

Results

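The cells described here were 51 single cells sorted from Drosophila embryos, 6.09% of the cells deposited for the series. They were chosen by measured reads because they held transcripts of GATAe or mex1 and lacked transcripts of esg. GATAe encodes a GATA factor of the endoderm, mex1 a small protein of the midgut epithelium and esg (escargot) a snail-family repressor of midgut and imaginal progenitors. A cell was kept when at least 500 genes had at least 10 estimated reads each, which 96.7% of the deposited cells met. A kept cell was then chosen when it had at least 10 reads of GATAe or mex1, under 10 of esg, under 10 of the hemocyte gene Ppn, under 100 of the muscle gene Mhc, and did not have apolpp, FASN1 and prc all at 10 or more reads. These cells are called esg-negative GATAe/mex1 cells below. They made up 6.30% of the kept cells (exact Clopper-Pearson 95% interval 4.73 to 8.21%). They were set against the 94 kept cells with at least 10 esg reads, called esg-positive cells, and against all other kept cells, a set that includes the esg-positive cells.

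All cells came from 1 labelled group: embryos aged 19 to 20 h of a fly stock that carries Mhc-TAU-GFP, in which GFP follows the gene of the muscle Myosin heavy chain, sorted as positive for GFP, negative for DAPI, which enters damaged cells, and positive for the DNA dye DRAQ5. The chosen and the comparison cells share this genotype, age and sort, many embryos were pooled, and primers for Hox genes were added to the Smart-seq2 reactions of every cell. No label ties a cell to an embryo or a culture. The series is therefore 1 sample, no test between sets of cells was made, and intervals cover counting error only. Plates served as a technical unit.

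The chosen cells lay on 13 of 15 plates, with 1 to 9 cells on each of those plates, and made up 6.33% ± 4.57 of the kept cells of a plate (SD, n = 15 plates). Their reads per cell ranged from 98988 to 4280158 (median 689654), against a median of 534586 reads in esg-positive cells and 782390 in all other kept cells. The median number of genes with 10 reads was 2073 in the chosen cells, 1421 in esg-positive cells and 1601.5 in all other kept cells. Ribosomal RNA features took a median of 30.2% of the reads in the chosen cells, 25.9% in esg-positive cells and 34.8% in all other kept cells.

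The insect gut is lined by an epithelium whose parts differ in origin and in junctions. Midgut cells derive from the endoderm and carry smooth septate junctions, whose proteins include Tsp2A, Mesh and Snakeskin (Ssk). Such junctions are also found in the Malpighian tubules, the excretory organs that open at the border of midgut and hindgut. Enterocytes secrete proteases and glycosidases and absorb sugars, sterols and metals, copper cells of the middle midgut require the Hox gene lab, enteroendocrine cells release peptide hormones, and adult midgut precursors keep esg and respond to Notch. In the tubules, principal cells take up cations through a plasma membrane proton pump and respond to Capa peptides, and stellate cells pass chloride and respond to Leucokinin.

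The genes of the rule are given as a description, since they chose the cells. Of the kept cells with 10 reads of GATAe or mex1, 48 were left out for esg, 4 for Ppn, 1 for Mhc and 3 for the 3 fat body and heart genes together. Among the 51 chosen cells, 20 had GATAe alone, 12 had mex1 alone and 19 had both. GATAe (FBgn0038391, chromosome 3R, 16009105 to 16019133 in the BDGP6 assembly) had a median CPM (reads of a gene scaled to a library of common size) of 72.5 in the chosen cells, with a highest value of 1525 CPM. mex1 (FBgn0004228, chromosome 3L, 15517424 to 15519592) had a median of 55.6 CPM and a highest value of 2296 CPM. Just inside the limit, 5 chosen cells had 10 to 19 reads as the larger of the GATAe and mex1 counts, and just outside it 3 kept cells that met the other limits had 5 to 9. Of the chosen cells, 6 had 1 to 9 esg reads and 3 had 10 to 99 Mhc reads, while 41 had no Mhc read at all. Among the esg-positive cells, 47 had 10 reads of GATAe and only 4 had 10 reads of mex1.

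The clearest shared feature of the chosen cells was the set of smooth septate junction genes, which the rule did not use. Tsp2A (FBgn0024361, chromosome X, 1346553 to 1348143), a tetraspanin, was detected at 10 or more reads in 46 of 51 chosen cells (90.2%, interval 78.6 to 96.7%), in 0 of 94 esg-positive cells (interval 0 to 3.85%) and in 4.35% of all other kept cells. mesh (FBgn0051004, chromosome 3R, 31178389 to 31195762), a transmembrane protein of the same junction, was detected in 45 of 51 chosen cells (88.2%), in 1.06% of esg-positive cells and in 3.43% of all other kept cells. Ssk (FBgn0036945, chromosome 3L, 20188522 to 20189779) was detected in 46 of 51 chosen cells (90.2%), in 0 of 94 esg-positive cells and in 15.04% of all other kept cells. The 3 genes came together: 45 chosen cells had all 3, 1 had 2 and 5 had none.

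The levels of the 3 junction genes differed as widely as their shares. Tsp2A ranged from 0 to 5298 CPM over the chosen cells (median 919), with a median of 0 CPM and a highest value of 19.0 CPM in esg-positive cells. mesh ranged from 0 to 9311 CPM (median 1138) in the chosen cells, with a highest value of 45.5 CPM in esg-positive cells. Ssk had a median of 3516 CPM in the chosen cells and a highest value of 4.59 CPM in esg-positive cells. For Tsp2A and Ssk, the esg-positive cells thus overlapped the chosen cells only at the 5 chosen cells without junction genes. For mesh they also overlapped at 1 further chosen cell, which had 0 CPM of mesh. Junction genes were likewise rare in the esg-positive cells that carried GATAe or mex1, since 47 of those 48 had none of the 3 genes at 10 reads. With every cell thinned to 256773 reads, which left out 5 chosen, 17 esg-positive and 76 other kept cells, Tsp2A was detected in 91.3% of the chosen cells, 0% of esg-positive cells and 3.23% of all other kept cells.

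The 5 chosen cells without any junction gene were shallower, with a median of 261043 reads, 848 genes and 45.3% of reads from ribosomal RNA. Of these 5 cells, 4 had Notch (N), so that they held 4 of the 8 chosen cells with N. Among the 10 genes with the largest loss in share against esg-positive cells, given below, hdc and Nplp2 were each in 4 of the 5 cells. E(spl)mbeta-HLH was in 3 of them, out of 4 chosen cells with it, and CG30283 in 3. E(spl)m3-HLH, zfh2 and CG14696 were in 2 each, sna and Traf4 in 1 each and CG34347 in 0. Nplp2 was frequent in all other kept cells too (84.6%, against 76.6% of esg-positive cells). The esg gene itself, below 10 reads in each by the rule, had a median of 17.6 CPM in the 5 cells. Outside the rule, 17 kept cells had all 3 junction genes, of which 16 had under 10 reads of both GATAe and mex1. None of those 17 cells was esg-positive, 11 of them had 2 or more genes of the Malpighian tubule list described below, and 3 had a secreted digestive gene. The chosen cells were therefore 45 of the 62 kept cells with all 3 junction genes.

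A gene was counted as higher when its mean CPM, with 1 CPM added, was at least 2-fold that of the comparison cells and at least 25% of the chosen cells had 10 reads of it. It was counted as lower when its mean was at most 1/2 and at least 25% of the comparison cells had 10 reads of it. Of 8809 genes compared, 966 were higher than in all other kept cells, which is 10.97% of the genes, and 4.904% were lower. Against esg-positive cells, 8.593% of the genes were higher and 7.663% lower. The median log2 ratio over the 8809 genes was 0.07 against all other kept cells and -0.23 against esg-positive cells. The cells were chosen on their transcripts, so these counts describe them and are not tests.

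In the wider list of 14 brush border and septate junction genes, 4 were higher and 0 lower than in all other kept cells, beside the 10.97% higher and 4.904% lower over all genes. Of the 4, 3 are the junction genes already described, and the other was Myo61F, an unconventional myosin of the brush border, detected in 56.9% of the chosen cells, 14.9% of esg-positive cells and 22.8% of all other kept cells.

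**Figure D1:**
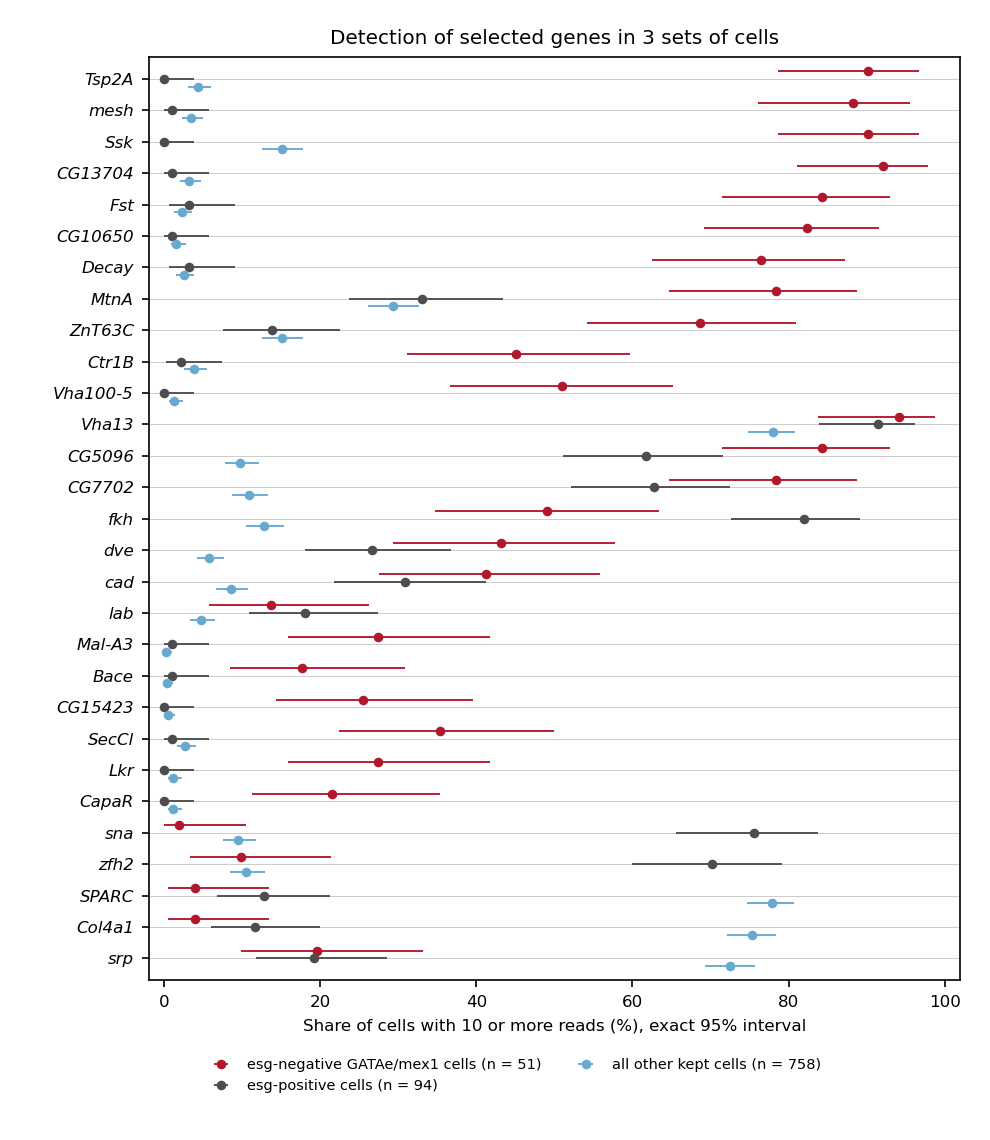
Share of cells with 10 or more reads of each gene (x axis, percent, with exact 95% interval) for 29 genes (y axis) in esg-negative GATAe/mex1 cells (red), esg-positive cells (grey) and all other kept cells (blue). Tsp2A, mesh and Ssk stood at 88.2 to 90.2% in the red group and at 0 to 1.06% in the grey group. The digestive and tubule genes plotted (Mal-A3, Bace, SecCl, Lkr and CapaR) and the marker CG15423 stood at 17.6 to 35.3% of the red group.

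Among the 25 genes with the largest gain in share over all other kept cells, the shares ran from 68.6 to 92.2% of the chosen cells and from 1.32 to 15.04% of all other kept cells. The mean CPM of each gene was higher in the chosen cells than in the other kept cells on 11 to 13 of the 13 plates. The first was CG13704 (current symbol hoka, FBgn0035583, chromosome 3L). It was detected in 47 of 51 chosen cells (92.2%), 1.06% of esg-positive cells and 3.17% of all other kept cells. It ranged from 0 to 3084 CPM in the chosen cells (median 861) and did not exceed 55.4 CPM in esg-positive cells. Fst (Frost), known as a cold-induced gene, was detected in 84.3% of the chosen cells, 3.19% of esg-positive cells and 2.24% of all other kept cells, with a median of 1811 CPM in the chosen cells. CG10650 was detected in 82.4% of the chosen cells, 1.06% of esg-positive cells and 1.58% of all other kept cells. CG9380 was detected in 84.3% of the chosen cells, 0 of 94 esg-positive cells and 2.90% of all other kept cells.

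Several of these 25 genes encode transporters, membrane and signalling proteins. Oatp33Eb, an organic anion transporter, was detected in 78.4% of the chosen cells, 1.06% of esg-positive cells and 1.72% of all other kept cells. Decay, an effector caspase, was detected in 76.5% of the chosen cells, 3.19% of esg-positive cells and 2.51% of all other kept cells. Lfg, of the Lifeguard family of membrane proteins, was detected in 70.6% of the chosen cells, 9.57% of esg-positive cells and 3.17% of all other kept cells. rg (rugose), an anchoring protein of protein kinase A, was detected in 80.4% of the chosen cells, 9.57% of esg-positive cells and 7.92% of all other kept cells. bru2, an RNA-binding protein of the Bruno family, was detected in 76.5%, 7.45% and 7.92% of the same 3 sets of cells. The tetraspanin Tsp29Fb was detected in 88.2% of the chosen cells, 28.7% of esg-positive cells and 6.73% of all other kept cells.

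Not all of the 25 genes set the chosen cells apart from esg-positive cells. CG5096, CG4781 and CG7702 were detected in 84.3%, 82.4% and 78.4% of the chosen cells and in 61.7%, 56.4% and 62.8% of esg-positive cells, against 9.76%, 8.71% and 10.8% of all other kept cells. Their log2 ratios over esg-positive cells were 0.16, 0.73 and -0.47. The adhesion molecule Fas2 lay between, with 78.4% of the chosen cells, 37.2% of esg-positive cells and 12.1% of all other kept cells. Of the 25 genes, 17 were detected in under 10% of esg-positive cells.

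The 10 genes with the largest loss in share against all other kept cells included SPARC and 2 collagen genes. SPARC, a collagen-binding matrix protein, was detected in 2 of 51 chosen cells (3.92%), 12.8% of esg-positive cells and 77.8% of all other kept cells. The type IV collagen genes vkg and Col4a1 were detected in 1.96% and 3.92% of the chosen cells, 8.51% and 11.7% of esg-positive cells, and 73.6% and 75.3% of all other kept cells. The mean of Col4a1 was 4.37 CPM in the chosen cells and 14946 CPM in all other kept cells. Glt and Tig, matrix proteins as well, were detected in 1.96% and 3.92% of the chosen cells and in 71.2% and 70.8% of all other kept cells. The chitinase-like growth factors Idgf2 and Idgf6 were detected in 1.96% and 7.84% of the chosen cells and in 71.6% and 72.96% of all other kept cells, although a single chosen cell reached 2508 CPM of Idgf2. Nplp2 was detected in 19.6% of the chosen cells, 76.6% of esg-positive cells and 84.6% of all other kept cells. CG8157 and CG31777 were detected in 3.92% and 1.96% of the chosen cells, 6.38% and 5.32% of esg-positive cells, and 73.9% and 66.5% of all other kept cells.

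The 10 genes with the largest loss in share against esg-positive cells included sna and 2 E(spl) genes. sna (snail), a repressor related to esg, was detected in 1 of 51 chosen cells (1.96%), 75.5% of esg-positive cells and 9.50% of all other kept cells. The Notch response genes E(spl)mbeta-HLH and E(spl)m3-HLH were detected in 7.84% and 3.92% of the chosen cells and in 78.7% and 67.02% of esg-positive cells. zfh2, a zinc finger homeodomain factor, was detected in 9.80% of the chosen cells and 70.2% of esg-positive cells. The adaptor gene Traf4 was detected in 7.84% of the chosen cells and 73.4% of esg-positive cells. hdc (headcase) was detected in 27.5% of the chosen cells and 91.5% of esg-positive cells. The others of the 10 were Nplp2, given above, and CG30283, CG34347 and CG14696, detected in 5.88%, 3.92% and 7.84% of the chosen cells and in 68.1%, 63.8% and 64.9% of esg-positive cells. Of 11 genes compared from the midgut progenitor list, 7 were lower in the chosen cells than in esg-positive cells and 0 were higher. Over all genes 7.663% were lower and 8.593% higher, and the list median was -2.64 on the log2 scale. From that list, Notch itself (N) was detected in 15.7% of the chosen cells and 63.8% of esg-positive cells, and Sox100B in 3.92% and 54.3%.

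Of 17 cell cycle genes, 1 was higher and 1 lower than in all other kept cells, and 1 was higher and 2 lower than in esg-positive cells, counts near the shares over all genes given above. stg (string), the phosphatase that drives entry into mitosis, was detected in 0 of 51 chosen cells (interval 0 to 6.98%), against 30.9% of esg-positive cells and 45.6% of all other kept cells. dap (dacapo), an inhibitor of the cyclin E kinase, was detected in 7.84% of the chosen cells and 30.9% of esg-positive cells. fzr, an activator of the anaphase-promoting complex known from endocycling cells, was detected in 25.5% of the chosen cells, 13.8% of esg-positive cells and 15.8% of all other kept cells. The 17 genes of the list had a median log2 ratio of -1.92 over all other kept cells and -1.81 over esg-positive cells, and 29 of 51 chosen cells had none of them.

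**Figure D2:**
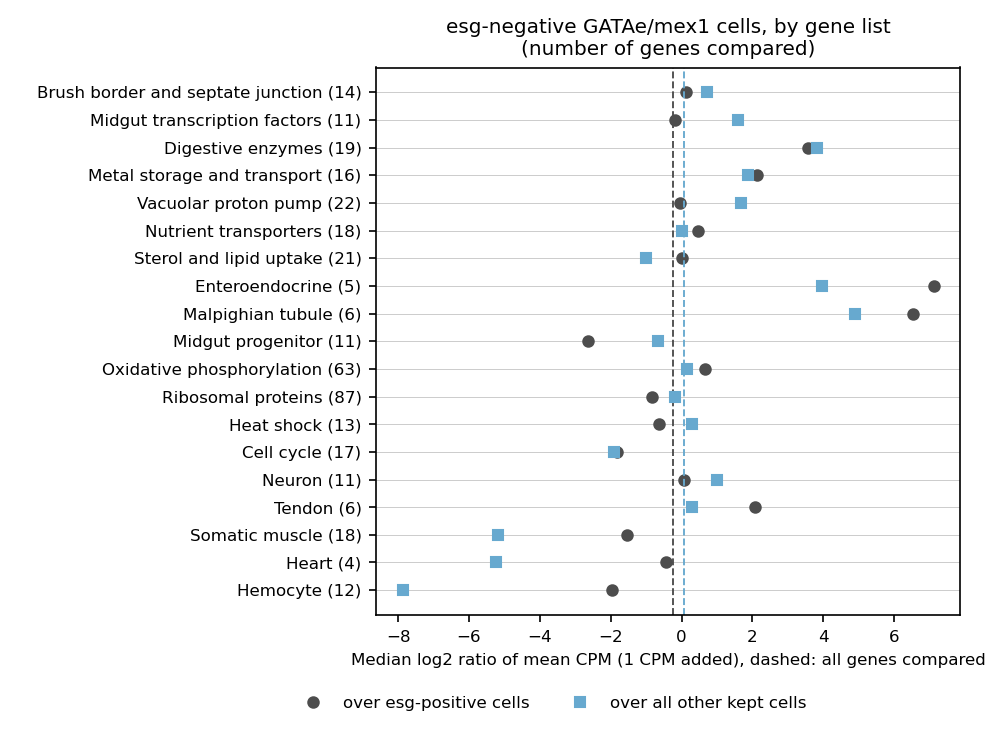
Median log2 ratio of mean CPM (x axis, 1 CPM added) of the esg-negative GATAe/mex1 cells over esg-positive cells (grey circles) and over all other kept cells (blue squares) for 19 gene lists (y axis, number of genes compared in brackets). Dashed lines mark the median over all 8809 genes, -0.23 and 0.07. The tubule list stood at 6.52 and 4.91, the digestive enzyme list at 3.57 and 3.82, and the hemocyte list at -1.97 and -7.87.

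Proton pump genes were high in the chosen cells and about as high in esg-positive cells. The vacuolar proton pump acidifies organelles and, in some epithelia, energises transport across the plasma membrane. Of 22 subunit genes compared, 16 were higher in the chosen cells than in all other kept cells and 0 were lower, beside 10.97% and 4.904% over all genes. The list median was 1.68 on the log2 scale. Against esg-positive cells 2 were higher and 0 lower, beside 8.593% and 7.663% over all genes, with a list median of -0.06. The summed level of the list had a median of 9776 CPM in the chosen cells, 9246 CPM in esg-positive cells and 1777 CPM in all other kept cells. Vha16-1, a ring subunit, averaged 1263 CPM in the chosen cells, against 191.6 CPM in all other kept cells (log2 ratio 2.71), and Vha13, a stalk subunit, was detected in 94.1% of the chosen cells, 91.5% of esg-positive cells and 77.97% of all other kept cells.

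Isoforms of the large membrane subunit differed from the other pump genes. Vha100-5 was detected in 26 of 51 chosen cells (50.98%, interval 36.6 to 65.2%), 0 of 94 esg-positive cells and 1.32% of all other kept cells, and ranged from 0 to 5207 CPM in the chosen cells with a median of 71.99 CPM. Vha100-4 was detected in 7 of 51 chosen cells (13.7%), 0 of 94 esg-positive cells and 1.06% of all other kept cells, with a highest value of 5551 CPM. The other isoforms Vha100-1 and Vha100-2 were detected in 50.98% and 66.7% of the chosen cells and in 53.2% and 56.4% of esg-positive cells.

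Metal handling genes formed the next group. Of 16 genes compared, 5 were higher than in all other kept cells and 0 were lower, beside 10.97% and 4.904% over all genes. The list median was 1.86 on the log2 scale. Against esg-positive cells 4 were higher and 1 was lower, beside 8.593% and 7.663% over all genes. MtnA, a metallothionein that binds copper and other metals, was detected in 78.4% of the chosen cells, 32.98% of esg-positive cells and 29.3% of all other kept cells, with a median of 216.3 CPM and a highest value of 18866 CPM in the chosen cells. ZnT63C, a zinc exporter, was detected in 68.6% of the chosen cells, 13.8% of esg-positive cells and 15.04% of all other kept cells. Ctr1B, a copper importer, was detected in 45.1% of the chosen cells, 2.13% of esg-positive cells and 3.83% of all other kept cells. The ferritin chains Fer1HCH and Fer2LCH were detected in 88.2% of the chosen cells each and in 88.3% of esg-positive cells each, with log2 ratios of -0.26 and -0.03 over all other kept cells.

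Transcription factors known from the midgut were present in part of the chosen cells. Of 11 such genes compared, 6 were higher and 1 was lower than in all other kept cells (list median 1.603 on the log2 scale), beside 10.97% and 4.904% over all genes. Against esg-positive cells 3 were higher and 1 was lower (list median -0.17), beside 8.593% and 7.663% over all genes. hth (homothorax) was detected in 64.7% of the chosen cells, 11.7% of esg-positive cells and 40.2% of all other kept cells. dve, cad and fkh were detected in 43.1%, 41.2% and 49.02% of the chosen cells, in 26.6%, 30.9% and 81.9% of esg-positive cells, and in 5.80%, 8.58% and 12.8% of all other kept cells. The nuclear receptor Hnf4 was detected in 35.3% of the chosen cells, 17.02% of esg-positive cells and 21.9% of all other kept cells. srp, a GATA factor of hemocytes and fat body, was detected in 19.6% of the chosen cells, against 72.6% of all other kept cells. Ptx1, a homeodomain factor, was detected in 18 of 51 chosen cells (35.3%), 11.7% of esg-positive cells and 2.90% of all other kept cells.

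Each secreted digestive gene reached 10 reads in 14 or fewer of the 51 chosen cells, and so did the markers CG9682 and CG15423. Bace, an aspartic protease, was detected in 9 of 51 chosen cells (17.6%, interval 8.40 to 30.9%), CG9682 in 6 (11.8%) and CG15423 in 13 (25.5%). In esg-positive cells the same genes were detected in 1.06%, 0% and 0% of cells, and in all other kept cells in 0.40%, 0.13% and 0.53%. The maltases Mal-A3, Mal-A2 and Mal-A1, which split disaccharides, were detected in 14, 10 and 5 of the 51 chosen cells, and the trypsins etaTry, alphaTry, zetaTry and kappaTry in 8, 5, 5 and 5. Mal-A3 averaged 506.97 CPM in the chosen cells, 2.21 CPM in esg-positive cells and 0.51 CPM in all other kept cells, with a highest value of 10851 CPM. Of 19 digestive genes compared, 14 had a log2 ratio above 0 over all other kept cells and 1, Mal-A3, reached both limits for a higher gene. The lysosomal mannosidase genes LManI and LManII were lower. Over all genes 10.97% were higher and 4.904% lower, so these few calls do not mark the list as a whole. The lysosomal cathepsin genes of the list were frequent, with cathD in 68.6%, CtsL1 in 64.7% and CtsB in 74.5% of the chosen cells. With these included, 41 of 51 chosen cells had at least 2 of the 19 genes and 3 had none. The list median of 3.82 was 2.40 without plate 9, 3.17 without plate 1 and 4.57 without plate 17.

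Genes of sterol and nutrient uptake gave a mixed picture. Npc1b, a sterol transporter of the midgut, and Npc2e, a sterol-binding protein, were detected in 13.7% and 15.7% of the chosen cells, in 0 of 94 esg-positive cells each and in 0.26% of all other kept cells each. fabp, a fatty acid binding protein, was detected in 49.02% of the chosen cells, 18.1% of esg-positive cells and 23.7% of all other kept cells. In contrast, Npc2g, Npc2h and the lipoprotein gene Apoltp were detected in 1.96%, 0% and 0% of the chosen cells and in 54.7%, 48.02% and 41.6% of all other kept cells. Of 21 genes of the list 1 was higher and 10 were lower than in all other kept cells, beside 10.97% and 4.904% over all genes. Among 18 nutrient transporter genes 0 were higher and 3 lower, including the trehalose transporter Tret1-1, detected in 19.6% of the chosen cells and 39.8% of all other kept cells.

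The label midgut was checked against markers of other cell types, and the Malpighian tubule list stood out. Its 6 genes compared were SecCl (listed as CG7589), a chloride channel of stellate cells, ZnT35C, a zinc transporter of the tubules, Lkr, the Leucokinin receptor, CapaR, the Capa receptor, Alp4, an alkaline phosphatase of the tubules, and byn, a hindgut regulator. SecCl was detected in 18 of 51 chosen cells (35.3%, interval 22.4 to 49.9%), 1.06% of esg-positive cells and 2.64% of all other kept cells. ZnT35C was detected in 39.2% of the chosen cells, 1.06% of esg-positive cells and 1.58% of all other kept cells. Lkr and CapaR were detected in 27.5% and 21.6% of the chosen cells, in 0 of 94 esg-positive cells each and in 1.19% of all other kept cells each. Alp4 was detected in 9.80% of the chosen cells and byn in 0 of 51.

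The hemocyte list was low in the chosen cells, and most muscle genes had lower means than in all other kept cells. Since the rule limits Ppn and Mhc in the chosen cells only, low values of these lists were in part set in advance. The summed lists below include Ppn and Mhc. The hemocyte genes Hml, NimC1, eater, He, Pxn and PPO2 were detected in 0 of 51 chosen cells, and the summed hemocyte list ranged from 0 to 578.2 CPM (median 18.2), against medians of 34.001 CPM in esg-positive cells and 13199 CPM in all other kept cells. Of 18 somatic muscle genes compared, 17 had a log2 ratio below 0 over all other kept cells, and Tm2 and up were detected in 0 of 51 chosen cells. The 1 exception, Msp300, a nesprin that anchors nuclei, was detected in 98.04% of the chosen cells, 100% of esg-positive cells and 93.1% of all other kept cells and averaged 4672 CPM, 1620 CPM and 1234 CPM in these sets. By the limits above, 1 of the 18 genes was higher and 0 were lower than in all other kept cells, beside 10.97% and 4.904% over all genes. The summed muscle list, which includes Msp300, was not low, with medians of 2286 CPM in the chosen cells, 1875 CPM in esg-positive cells and 852 CPM in all other kept cells. The visceral muscle and tracheal genes compared were each detected in 0 of 51 chosen cells, and of the heart list only prc, a gene of the rule, and 1 further gene reached 10 reads in any.

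Marker lists of neurons, tendon cells and glia were not low throughout. The neuron list summed to a median of 226.6 CPM in the chosen cells, 227.7 CPM in esg-positive cells and 120.8 CPM in all other kept cells, and 40 of 51 chosen cells had at least 2 of its 11 genes. Syt1 and Syx1A, of the machinery of vesicle release, were the most frequent, in 80.4% and 84.3% of the chosen cells, while elav, an RNA-binding protein of neurons, was detected in 15.7%. None of the 11 genes was higher than in all other kept cells and 1, elav, was lower, beside 10.97% and 4.904% over all genes. The median of the neuron list, 0.995 on the log2 scale over all other kept cells, was 0.17 without plate 5, 0.35 without plate 2 and 0.42 without plate 17. Of the 6 tendon genes, how, LanA, if and Tsp were detected in 45.1%, 43.1%, 33.3% and 25.5% of the chosen cells, and sr (stripe), the regulator that defines tendon cells, in 0 of 51. Against all other kept cells 2 tendon genes were higher, how and Tsp, and 1 was lower, LanA, beside the same shares over all genes. Of the glial genes, Gs2, a glutamine synthetase, was detected in 39.2% of the chosen cells, 13.8% of esg-positive cells and 58.1% of all other kept cells.

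The chosen cells fell into kinds that hardly overlapped, by counts of tubule and digestive genes. For this split, made after the values had been seen and so without a test, a cell was assigned by whether it had at least 2 of the 6 tubule genes, or at least 1 of 14 secreted digestive genes, which leaves out the lysosomal cathepsins and mannosidases. Of the 51 cells, 18 had at least 2 tubule genes (35.3%), 21 had at least 1 secreted digestive gene (41.2%), 0 had both and 12 had neither. All 18 cells of the first kind had 0 secreted digestive genes, and the 21 cells of the second kind had at most 1 tubule gene each. With a threshold of 1 read the counts were 20, 22 and 1 cell with both, and with 50 reads they were 17, 19 and 0. The label midgut therefore covers only part of the chosen cells by these markers, and no other name is given to them here.

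**Figure D3:**
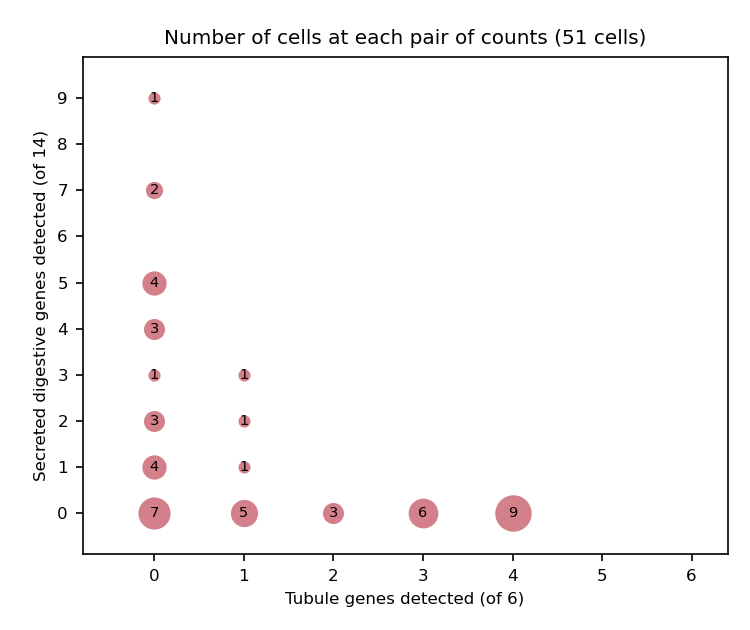
Number of tubule genes (x axis, of 6) and of secreted digestive genes (y axis, of 14) with 10 or more reads in each esg-negative GATAe/mex1 cell, with the number of cells at each position as the circle's area and label. The 18 cells with 2 or more tubule genes all lay at 0 digestive genes, and 7 cells lay at 0 of both.

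The 2 kinds overlapped in depth and shared 6 plates, and whether depth or plate played a part in the split was not tested. The 18 cells with tubule genes had a median of 697993 reads and came from 8 plates, and the 21 cells with digestive genes had a median of 723775 reads and came from 10 plates, 6 of which held both kinds. Ribosomal RNA took medians of 28.2% and 32.3% of the reads. The 18 cells with tubule genes all had Tsp2A, mesh and Ssk, and 19 of the 21 cells with digestive genes had all 3. GATAe was detected in 15 of 18 and 15 of 21 cells, and mex1 in 7 of 18 and 18 of 21 cells, with both genes in 4 and 12 cells. Fst and CG13704 were detected in 17 and 18 of the 18 cells with tubule genes and in 20 and 20 of the 21 cells with digestive genes.

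The cells with tubule genes shared many transcripts that the split had not used. CG14292 was detected in 18 of 18 of these cells, at 61.1 to 27375 CPM (median 7757), and in 0 of 21 cells with digestive genes, where the highest value was 2.33 CPM. axo (axotactin) and the RNA-binding gene how were detected in 18 of 18 and 0 of 21 cells each, with medians of 202.03 and 220.8 CPM in the cells with tubule genes. fkh, a forkhead factor needed in the tubules and the gut, was detected in 18 of 18 and 1 of 21 cells, at 34.2 to 2580 CPM in the cells with tubule genes. CG34284 and the neprilysin Nep2 were detected in 17 of 18 and 0 of 21 cells each, with medians of 5643 and 1851 CPM in the cells with tubule genes. These genes were picked as those with the largest differences in share between the 2 kinds of cells, so their differences are a description and not a test.

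Transport and hormone signalling genes were among these transcripts. Nha2, a sodium and proton antiporter, was detected in 18 of 18 cells with tubule genes and 2 of 21 cells with digestive genes, with medians of 1985 and 0 CPM. Lgr1, a receptor of glycoprotein hormones, was detected in 17 of 18 and 1 of 21 cells, and Ac78C, an adenylyl cyclase, in 17 of 18 and 2 of 21 cells. Vha100-5 was more frequent too, in 15 of 18 cells with tubule genes and 8 of 21 cells with digestive genes. tsh (teashirt) and tio (tiptop), related zinc finger factors known from stellate cells, were detected in 17 and 16 of 18 cells with tubule genes and in 2 and 0 of 21 cells with digestive genes. Ptx1 was detected in 13 of 18 and 2 of 21 cells, cut (ct), a homeodomain factor of tubule development, in 13 of 18 and 0 of 21 cells, and Msp300 had medians of 9291 and 657.8 CPM.

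The receptors of the 2 tubule cell types were not exclusive among these cells. In the 18 cells with tubule genes, SecCl was detected in 17, ZnT35C in 17, Lkr in 13 and CapaR in 10, with 3 to 4 of the 6 genes in 15 cells. SecCl had a median of 3968 CPM in the cells with tubule genes and a highest value of 377.2 CPM in the cells with digestive genes. Genes of the tendon list moved with this kind of cell: Tsp (thrombospondin) was detected in 13 of 18 and 0 of 21 cells, and the integrin subunit if in 13 of 18 and 1 of 21 cells, while sr (stripe), the defining tendon factor, was detected in 0 of 51 chosen cells.

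**Figure D4:**
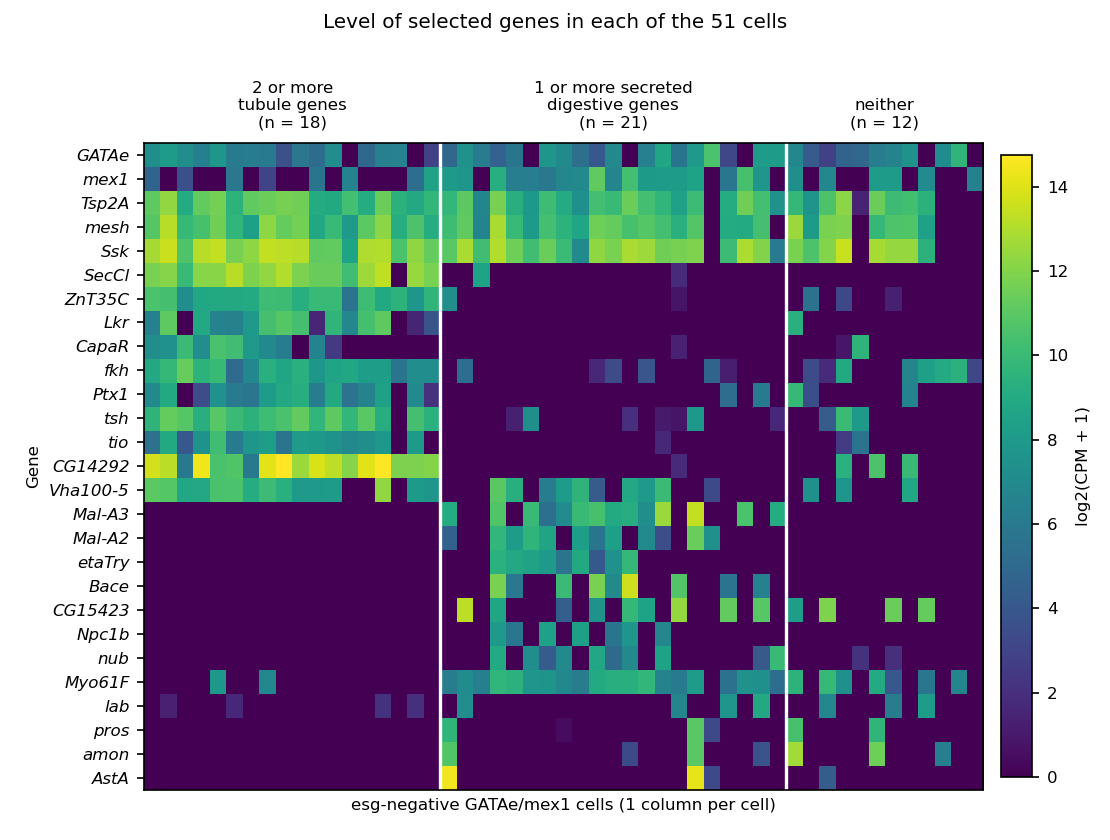
Level of 27 genes (rows) in each of the 51 esg-negative GATAe/mex1 cells (columns), as log2(CPM + 1) by colour, with cells grouped by the tubule and secreted digestive gene counts. Tsp2A, mesh and Ssk were high in most cells of all 3 groups, CG14292, fkh and Vha100-5 filled most of the first 18 columns, and Myo61F filled most of the next 21.

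Other genes were frequent in the cells with digestive genes and absent or rare in those with tubule genes. CG44250 was detected in 20 of 21 of these cells (median 1114 CPM) and in 0 of 18 cells with tubule genes, where no read was found. CG11378 and the glutathione S-transferase GstS1 were detected in 18 of 21 cells each, and CG32633 in 17 of 21, all in 0 of 18 cells with tubule genes. These genes were found outside the cells with digestive genes as well, with CG44250 in 6 of the 12 cells of neither kind, 35.1% of esg-positive cells and 5.54% of all other kept cells. CG11378 was detected in 31.9% of esg-positive cells and 27.6% of all other kept cells, and GstS1 in 19.1% and 14.5%. CG13321 was detected in 20 of 21 and 3 of 18 cells, with medians of 2184 and 0 CPM and a highest value of 41139 CPM. Myo61F was detected in 20 of 21 cells with digestive genes and 2 of 18 cells with tubule genes. The POU factor nub, Npc1b and Npc2e were detected in 9, 7 and 8 of the 21 cells and in 0 of the 18 cells, Hnf4 in 12 and 2, and PGRP-LB, which breaks down bacterial peptidoglycan, in 12 and 1.

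Within the cells with digestive genes, levels of the enzymes varied widely. Their counts ran from 1 to 9 of the 14 genes, and 16 cells had 2 or more. Mal-A3 ranged from 0 to 10851 CPM, with a median of 520.995 CPM over the 21 cells, and 7 of the 21 had no detection of it. Outside the chosen cells, 82 of the other kept cells had at least 1 of the 14 genes, 9 had at least 2, and 16 had at least 2 tubule genes, so secreted digestive genes were not confined to the chosen cells.

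The Hox gene lab marked 7 of the 51 chosen cells (13.7%, interval 5.70 to 26.3%), against 18.1% of esg-positive cells and 4.75% of all other kept cells. Its levels in the 7 cells were 72.1, 105.8, 112.7, 149.6, 203.7, 272.2 and 474.5 CPM, and the cells came from 6 plates. All 7 had mex1, all 3 junction genes, and the transcription factors dve, known from copper cells, and hth, and 0 of 7 had cad, a factor of the posterior gut. CG15423 was detected in 7 of 7 of these cells, at 1902 to 9853 CPM, and CG9682 in 6 of 7, so 7 of the 13 chosen cells with CG15423 and 6 of the 6 with CG9682 had lab. Vha100-4 was detected in 7 of 7, at 62.4 to 5551 CPM, and in none of the other 44 chosen cells, while Vha100-5 was detected in 0 of 7. The summed proton pump genes had a median of 20339 CPM in the 7 cells. Of the 7 cells, 4 had a secreted digestive gene, 0 had 2 tubule genes and Mal-A3 was detected in 0.

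Other Hox genes were nearly absent. Any of the 6 Hox genes compared was detected in 9 of 51 chosen cells (17.6%), in 28.7% of esg-positive cells and in 38.3% of all other kept cells. Apart from lab, only Scr and Ubx were detected, in 1 cell each, with Ubx at 1123 CPM. Antp, abd-A and Abd-B were detected in 0 of 51 chosen cells (interval 0 to 6.98%) and in 13.5%, 12.1% and 8.44% of all other kept cells.

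A few chosen cells carried genes of hormone-secreting cells. At least 3 of 5 enteroendocrine genes compared were detected in 4 of 51 chosen cells, on 4 plates, and 43 cells had none. All 4 had pros, the transcription factor that defines enteroendocrine cells, amon, a prohormone convertase, Rab3 and nSyb, both of secretory vesicles, and all 4 had mex1 and the 3 junction genes. pros had a median of 1095 CPM and a highest value of 1969 CPM in these cells, and amon ranged from 1705 to 6708 CPM. AstA (Allatostatin A), a gut peptide hormone, reached 18789 and 23302 CPM in 2 of them and 0 CPM in the other two. elav, a neuronal RNA-binding gene, was detected in 3 of the 4. The median log2 ratio of the neuron list over all other kept cells was 0.995, and 0.17 without plate 5.

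The split by GATAe and mex1, which uses the genes of the rule and is a description only, followed the tubule and digestive split in part. fkh was detected in 16 of 20 cells with GATAe alone, 4 of 12 with mex1 alone and 5 of 19 with both. CG44250 was detected in 4 of 20, 7 of 12 and 15 of 19 of the same cells, and Mal-A3 in 1 of 20, 5 of 12 and 8 of 19. Ssk was detected in 16 of 20, 11 of 12 and 19 of 19. Cells with mex1 alone were shallower, with a median of 377574 reads, against 665760 reads with GATAe alone and 896788 reads with both.

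Housekeeping lists differed more between the chosen and the esg-positive cells than between the chosen and all other kept cells. Genes of oxidative phosphorylation had a list median of 0.65 on the log2 scale over esg-positive cells and 0.15 over all other kept cells, and 60 of 63 genes had a ratio above 0 over esg-positive cells. Of the 63, 7 were counted as higher and 0 as lower than in esg-positive cells, beside 8.593% higher and 7.663% lower over all genes. ND-23, a subunit of complex I, was detected in 70.6% of the chosen cells, 18.1% of esg-positive cells and 46.04% of all other kept cells. Ribosomal protein genes had a list median of -0.85 over esg-positive cells and -0.19 over all other kept cells, and 16 of 87 were counted as lower than in esg-positive cells. RpL38 averaged 313.7 CPM in the chosen cells, 853.05 CPM in esg-positive cells and 440 CPM in all other kept cells. Heat shock genes, which respond to handling, had a list median of -0.64 over esg-positive cells and 0.28 over all other kept cells, and their part in these differences was not tested.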

How the data were processed

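Single cells sorted on Mhc-TAU-GFP were sequenced by Smart-seq2. The authors pseudo-aligned the reads to BDGP6 cDNA with kallisto (0.43.0 per the submitters' notes) and deposited estimated counts, rounded to whole numbers, for 8862 genes, and per cell estimated counts and TPM per transcript. TPM served 1 alternative, and the cell files gave list genes absent from the series table. The release of the cDNA is not given in the sources used here. Positions are from Ensembl 115 (BDGP6).

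Of 837 deposited cells, 809 were kept (500 genes at 10 reads), of which 107 had GATAe or mex1, 51 were chosen and 758 were the other kept cells. Against the other kept cells 966 genes were higher and 432 lower, and against esg-positive cells 757 and 675. Counts were scaled to CPM over all reads of a cell. Genes with 10 reads in at least 5 kept cells were compared, without 11 ribosomal RNA features and the 8 rule genes. In flagging genes, a count of 0 cells was taken to allow 3 cells, a lower limit than the exact one (5.88% against 6.98% of 51 cells). Shares have exact Clopper-Pearson 95% intervals, which cover counting error only, since no molecular identifiers were used and PCR copies are not separate molecules. For 1 alternative, each cell was thinned to 256773 reads, the 10th percentile. No doublet caller was run. The 28 gene lists, the rule and the members were chosen with earlier results of these data known. Named genes were the 5 markers, the 25 most and 10 least frequent relative to all other kept cells, the 15 and 10 relative to esg-positive cells, up to 6 called genes per list and the Hox genes, and other list genes and genes of the splits were added after their values were seen. The comparison was run on simulated counts with 4-fold changes in genes of higher mean level. Calls at 2-fold and in sparse genes were not tested there. Python 3.11.15, numpy 2.4.6, pandas 2.3.3, scipy 1.17.1 and matplotlib 3.10.9 were used.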

Additional observations from a re-analysis of the deposited data

Results flagged for a closer look

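The comparisons above did not use 3 digestive genes, because the series table has no row for them. They were detected in the transcript counts of the single cell files above the 5.88% that 3 of 51 cells make. The trypsin gene iotaTry was detected in 6 of 51 chosen cells (11.8%), 0 of 94 esg-positive cells and 0.13% of all other kept cells. The trypsin gene lambdaTry was detected in 5 of 51 chosen cells (9.804%), 0 of 94 esg-positive cells and 0.13% of all other kept cells. The maltase gene Mal-A4 was detected in 4 of 51 chosen cells (7.84%), 0 of 94 esg-positive cells and 0.26% of all other kept cells. All of these chosen cells were among the 21 with secreted digestive genes. These genes belong to families of related copies, so estimated counts may be shared between copies.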

How the results depend on the processing

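The share of kept cells that were chosen was 6.30%, between 5.55 and 6.81% with any 1 plate left out, 2.35% when both GATAe and mex1 were required and 3.83% when mex1 was required. Against all other kept cells, 10.97% of the genes were higher (10.55 to 11.69% without 1 plate) and 4.904% lower (4.68 to 5.597%). A limit of 10% of cells in place of 25% gave 9.02% lower, a limit of 50% gave 4.68% higher and 1.12% lower, and 4-fold in place of 2-fold gave 4.33% higher and 2.76% lower. Against esg-positive cells, 8.593% of the genes were higher (8.08 to 9.17% without 1 plate) and 7.663% lower (7.24 to 8.82%). A limit of 10% of cells gave 13.6% higher and 14.4% lower, a limit of 50% gave 3.25% and 3.27%, and 4-fold gave 4.46% and 1.94%. These moves follow from the stricter or looser limits themselves. Ribosomal RNA left out of the library size, thinning, TPM, plate means, 10 CPM added, detection at 5 or 20 reads, no filter on genes and other choices of chosen or esg-positive cells kept the 4 shares of genes within 1.5 times. Without the 5 cells lacking junction genes, an alternative chosen after seeing the data, the shares were 12.03% and 5.22%, and 9.59% and 8.45%. With 1 plate left out, the median log2 ratio over all other kept cells ranged from 2.40 to 4.57 for digestive enzymes, 0.49 to 0.91 for brush border and septate genes, 4.31 to 5.24 for tubule genes and 1.52 to 1.75 for the proton pump, and the share of chosen cells with lab ranged from 10.9 to 16.7%. Other detection limits and thinning, chosen after seeing the data, gave 33.3 to 39.2% of chosen cells with 2 tubule genes and 37.3 to 43.1% with a secreted digestive gene. Of 84 values of the 28 lists under another library size, thinning and TPM, 3 moved by more than the spread between plates and 0 turned their direction. Leaving out 1 plate did change the sign of some list medians over all other kept cells. They ranged from -0.33 to 0.47 for heat shock, -0.18 to 0.63 for tendon and -0.36 to 0.04 for nutrient transporter genes. For glia, gut immunity and salivary gland genes they ranged from -0.62 to 0.04, -0.48 to 0.01 and -0.22 to 0.02. No paired analysis was possible because no other group exists in the labels. With 51 cells of 1 sample, the exact interval of a count of 0 reaches 6.98%, and the spread between embryos was not measured.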
